A study of Homo sapiens with 60 samples.

Results

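In all, 8 members of the aldo-keto reductase family were followed across herbal extracts in HT29 cells, an established human colorectal adenocarcinoma line: AKR1C1, AKR1C2, AKR1C3, AKR1B1, AKR1B10, AKR1A1, AKR7A2 and AKR7A3. The members were chosen by name, with earlier results of these data known, and all 8 were found among the 60675 genes of the RNA-seq table. RNA was profiled after 24 h with vehicle (DMSO, 3 libraries) or with 1 of 8 ethanol extracts at 3 doses, 57 libraries in all, so that 60 libraries fell into 25 groups. Coptidis Rhizoma was given at 320, 64 and 12.8 µg/mL and Bupleuri Radix at 310, 62 and 12.4 µg/mL. The other 6 extracts, Zizyphi Fructus, Citri Unshius Pericarpium, Cimicifugae Rhizoma, Aconiti Lateralis Radix Preparata and the formulas Yijung-tang and Banhasasim-tang, were given at 500, 100 and 20 µg/mL. Each dose had 3 libraries for Citri, Cimicifugae, Bupleuri and Aconiti, 2 for Coptidis, Zizyphi and Yijung, and 1 for Banhasasim. The labels give 0.1% DMSO for the samples, whereas the text on the design of the series gives 2% for the vehicle control. Nothing in the labels says that libraries of a group came from separate cultures, so p-values measure the spread between these libraries, which may be technical.

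Aldo-keto reductases are soluble enzymes that use NADPH to turn aldehydes and ketones into alcohols. They clear reactive carbonyls formed by lipid peroxidation, and several act on steroids, prostaglandins, retinal or sugars. NRF2, the transcription factor released from KEAP1 under oxidative and electrophilic stress, is known to raise AKR1C1, AKR1C2, AKR1C3 and AKR1B10 in human cells through antioxidant response elements, and AKR1B10 is an enzyme of the normal gut epithelium.

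Library totals ranged from 18.1 to 36.7 M counts. By the prefix of their sample names the libraries fall in sets: Coptidis with Zizyphi, Citri with Cimicifugae, Bupleuri with Aconiti, Yijung with Banhasasim, and vehicle in a set of its own. The titles name the same batch (BatchD) for all libraries, vehicle included, and the labels do not say what a prefix stands for. A comparison of 2 doses of 1 extract, or of 2 extracts of 1 set, stays within a set, whereas in a comparison with vehicle the treatment and the set cannot be told apart. A single library stood apart: Zizyphi medium replicate 3 had a TMM scaling factor of 0.567 (0.931 to 1.04 in the other 59) and correlated at most 0.949 with any other library, where every other library reached at least 0.991 with its nearest. The calls from low to medium dose of Zizyphi are given with and without it. Other values include it unless stated, among them most adjusted p-values and the correlations with AKR1C1. Without it more genes were called from low to high dose in 7 of 8 extracts, for example 3631 in place of 2071 in Bupleuri, 227 in place of 23 in Citri and 161 in place of 33 in Yijung (0 with and without it in Zizyphi). Colon epithelial markers were present in all libraries, with EPCAM at 472 to 607 CPM (counts per M counts of a library, scaled by TMM) and VIL1 at 87.2 to 197 CPM. PTPRC and ALB, which define leukocytes and hepatocytes, reached at most 0.09 and 0.08 CPM, and COL1A2 of fibroblasts 0.157 CPM. Other genes of those lists were present: LYZ, which leukocytes and some gut epithelial cells make, at 1115 to 1987 CPM, CD14 at 1.96 to 4.71, COL1A1 at 0.825 to 3.69, LUM at 0.404 to 1.43 and the endothelial PECAM1 at 0.15 to 2.50 CPM. The summed level of the 12 colon epithelial markers was lowest at the high dose of Coptidis (9115 CPM) and highest in vehicle (13350 CPM). The part of these levels in the results was not tested. In bulk RNA, fewer cells with a transcript and less of it per cell cannot be told apart.

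AKR1C1, AKR1C2 and AKR1C3 lie side by side on chromosome 10 (GRCh38, GENCODE 29): AKR1C1 at 4963253 to 4983283 on the plus strand, AKR1C2 at 4987400 to 5018031 on the minus strand and AKR1C3 at 5035354 to 5107686 on the plus strand. Their coding sequences have 969 bases each without the stop codon. AKR1C1 and AKR1C2 differ at 19 of these (98.0% identical), AKR1C1 and AKR1C3 are 91.7% identical, and AKR1C2 and AKR1C3 91.2%. The similarity matters for every value below, because a read from a stretch without a difference can be assigned to any of them. The stretch of coding bases 121 to 210, read from GENCODE transcripts, is shown because it holds 7 of the 19 bases that separate AKR1C1 from AKR1C2 and ends in a run that is identical in the 3 genes. Capitals mark the 8 positions at which at least 1 of the 3 differs:
AKR1C1: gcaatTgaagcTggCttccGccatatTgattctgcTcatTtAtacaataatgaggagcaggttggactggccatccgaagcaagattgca
AKR1C2: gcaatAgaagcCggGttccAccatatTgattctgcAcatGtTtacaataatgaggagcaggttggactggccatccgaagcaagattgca
AKR1C3: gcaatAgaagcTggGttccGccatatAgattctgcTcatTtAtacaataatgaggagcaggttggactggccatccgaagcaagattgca

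Of the 100-base windows of the AKR1C1 coding sequence, 18.9% were found without a mismatch in AKR1C2 and 2.2% in AKR1C3. In the deposited table the expected counts of all 3 genes were fractions of a read in 60 of 60 libraries, as were those of AKR7A3 in 59. AKR1B1, AKR1B10 and AKR1A1 had whole counts in every library, and AKR7A2 in all but 1. AKR7A3 (chromosome 1, 19282558 to 19289250, minus strand) and AKR7A2 (19303965 to 19312146, minus strand) are 85.5% identical in coding sequence. AKR1B1 (chromosome 7, 134442350 to 134459284, minus strand) and AKR1B10 (134527592 to 134541408, plus strand) are 76.3% identical and share no run of more than 22 bases, so that their reads separate. AKR1A1 lies on chromosome 1 at 45550543 to 45570049 on the plus strand.

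The upstream sequence of AKR1C1 was also nearly that of AKR1C2. Promoter windows were taken from RefSeq (GRCh38.p14) for 7 of the 8 members, AKR1B10 having no entry in the table used. Over the 250 bases before the RefSeq start, AKR1C1 and AKR1C2 shared an identical run of 242 bases, whereas the AKR1C1 window and the first AKR1C3 window were 72.7% identical. The part of each window that lies outside the annotated exons of the 8 members is shown for this pair. Exons of other genes were not checked. The stretches are chr10:4963165-4963252 on the plus strand and chr10:5004024-5004107 on the minus strand (the AKR1C1 stretch is 4 bases longer, 88 against 84, and otherwise identical):
AKR1C1: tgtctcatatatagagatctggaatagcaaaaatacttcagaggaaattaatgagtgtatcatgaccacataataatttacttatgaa
AKR1C2: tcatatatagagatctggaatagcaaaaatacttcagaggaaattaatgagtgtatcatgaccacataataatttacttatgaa

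Next, 3 motifs were searched on both strands of the 250 bases: the core of the antioxidant response element (TGACNNNGC, found in 10.9% of 35116 promoter windows), the AP-1 site (TGANTCA, 6.6%, which can overlap the former) and the core of the aryl hydrocarbon receptor element (GCGTG, 32.2%). None of these letters occurred in the windows of AKR1C1, AKR1C2 or AKR1C3 (2 windows), nor in that of AKR1A1. AKR7A2 held 3 matches to the antioxidant response element core, which start 167, 156 and 95 bases before the RefSeq start. Its window is shown as the contrast to the AKR1C genes (chr1:19312147-19312396, minus strand), with all matches in capitals, the third stretch of capitals being the aryl hydrocarbon receptor core:
AKR7A2: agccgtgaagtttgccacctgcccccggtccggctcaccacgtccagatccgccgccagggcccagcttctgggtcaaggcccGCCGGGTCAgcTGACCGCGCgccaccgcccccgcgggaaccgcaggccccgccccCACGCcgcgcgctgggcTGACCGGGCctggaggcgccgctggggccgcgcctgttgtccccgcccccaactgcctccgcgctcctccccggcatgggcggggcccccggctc

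A match is a description of letters and not a binding site, and elements outside these windows were not searched.

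In vehicle, AKR1B10 had the highest level per kb of exon of the 8 genes (64.2 CPM per kb), followed by AKR7A2 (43.8), AKR1A1 (25.5), AKR7A3 (21.6) and AKR1C3 (13.1). AKR1C1 and AKR1C2 were lower and close to each other, at 1.75 CPM per kb each, and AKR1B1 was near 0 (0.0205). The long annotated exons of AKR1C1 (8765 bases, against 969 coding bases) lower its level on this scale. AKR1B10, a reductase of retinal and of aliphatic aldehydes, was therefore the leading transcript of the 8 members in vehicle-treated cells, as measured per length.

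AKR1C1, which inactivates progesterone, rose with the dose of 6 of the 8 extracts. At the high dose of Coptidis it stood at 139.8 and 146.1 CPM, against 24.7 and 24.0 CPM at the medium dose, 16.5 and 15.9 CPM at the low dose and 16.2, 14.6 and 15.2 CPM in vehicle. The high-dose libraries lay far above all others, and the low dose overlapped vehicle. The change from low to high dose was 8.80-fold (log2 3.14 ± 0.12 SE, adjusted p = 2.03e-24, edgeR quasi-likelihood test with Benjamini-Hochberg adjustment, as for all adjusted p-values here). In Bupleuri the high-dose libraries had 37.2, 33.2 and 36.3 CPM against 13.8, 13.1 and 12.1 CPM at the low dose, a change of 2.74-fold (log2 1.45 ± 0.10, adjusted p = 9.14e-15). The single Banhasasim libraries stood at 29.6 and 12.7 CPM at high and low dose (log2 1.23 ± 0.17, taking the spread of the replicated groups, since a single library has none). In Aconiti they had 24.8, 24.1 and 26.8 CPM against 12.3, 13.5 and 14.5 CPM (log2 0.91 ± 0.10), and in Cimicifugae 24.6, 23.9 and 24.1 CPM against 13.3, 13.4 and 14.7 CPM (log2 0.81 ± 0.10). In each of these the high and low doses did not overlap. Yijung gave the smallest called rise, 18.5 and 18.3 CPM against 12.7 and 11.8 CPM (log2 0.59 ± 0.12, adjusted p = 0.0207), which passed the threshold no longer when any 1 of its 4 libraries was left out (adjusted p between 0.123 and 0.418).

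Zizyphi and Citri did not raise AKR1C1 past the threshold. Zizyphi had 15.5 and 14.8 CPM at the high dose and 13.6 and 11.9 CPM at the low dose (log2 0.25 ± 0.13), and Citri 12.2, 11.0 and 11.5 CPM against 13.4, 12.6 and 13.0 CPM (log2 -0.17 ± 0.11). Citri was the only extract in which every high-dose library lay below every low-dose library. At the high dose the order of the group means of AKR1C1 was Coptidis (143 CPM), Bupleuri (35.6), Banhasasim (29.6), Aconiti (25.2), Cimicifugae (24.2), Yijung (18.4), vehicle (15.3), Zizyphi (15.1) and Citri (11.5). Aconiti and Cimicifugae overlapped, and Zizyphi lay within the vehicle range of 14.6 to 16.2 CPM.

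AKR1C2, which inactivates dihydrotestosterone, rose in the same 6 extracts. Coptidis took it from 15.1 and 13.6 CPM at the low dose to 78.6 and 82.3 CPM at the high dose, 5.61-fold (log2 2.49 ± 0.12, adjusted p = 1.97e-21). Bupleuri took it from 8.67, 7.71 and 8.999 CPM to 30.5, 28.7 and 29.9 CPM, 3.50-fold (log2 1.81 ± 0.10, adjusted p = 2.19e-17). These 2 extracts held the highest levels, and no high-dose library overlapped a low-dose one. The log2 change was 1.40 ± 0.10 in Aconiti (22.4, 22.9 and 23.9 CPM at the high dose), 1.40 ± 0.18 in Banhasasim (21.7 CPM), 1.04 ± 0.10 in Cimicifugae (20.4, 20.1 and 19.2 CPM) and 0.93 ± 0.13 in Yijung (16.3 and 17.2 CPM). In vehicle the gene stood at 11.6, 11.2 and 11.2 CPM, below all of these libraries. Zizyphi (log2 0.19 ± 0.13) and Citri (log2 -0.20 ± 0.11) again missed the threshold.

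AKR1C3, which forms testosterone from androstenedione and prostaglandin F from its precursors, was the most abundant of the 3 and changed least. Coptidis took it from 85.4 and 73.8 CPM at the low dose to 285 and 288 CPM at the high dose, 3.60-fold (log2 1.85 ± 0.18, adjusted p = 7.4e-12). Bupleuri took it from 50.4, 55.1 and 55.0 CPM to 114, 121 and 134 CPM, 2.30-fold (log2 1.20 ± 0.15, adjusted p = 3.58e-08). Vehicle itself was spread widely, at 74.8, 52.8 and 50.9 CPM, with replicate 1 above the others. The rise was also called in Banhasasim (log2 0.99 ± 0.25, adjusted p = 0.0238), Aconiti (0.76 ± 0.14) and Cimicifugae (0.65 ± 0.15, adjusted p = 0.011). In Cimicifugae it was lost when either of low-dose replicates 1 and 2, or high-dose replicate 2, was left out (adjusted p 0.0654, 0.0795 and 0.137). Yijung missed the threshold (80.9 and 81.2 CPM against 61.4 and 56.8 CPM, log2 0.45 ± 0.18, adjusted p = 0.569), although its libraries did not overlap, and passed it without Zizyphi medium replicate 3 (adjusted p = 0.0309). In all 8 extracts every high-dose library of AKR1C3 lay above every low-dose library, with 1 library against 1 in Banhasasim. How many of all genes separate in this way was not counted.

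**Figure D1:**
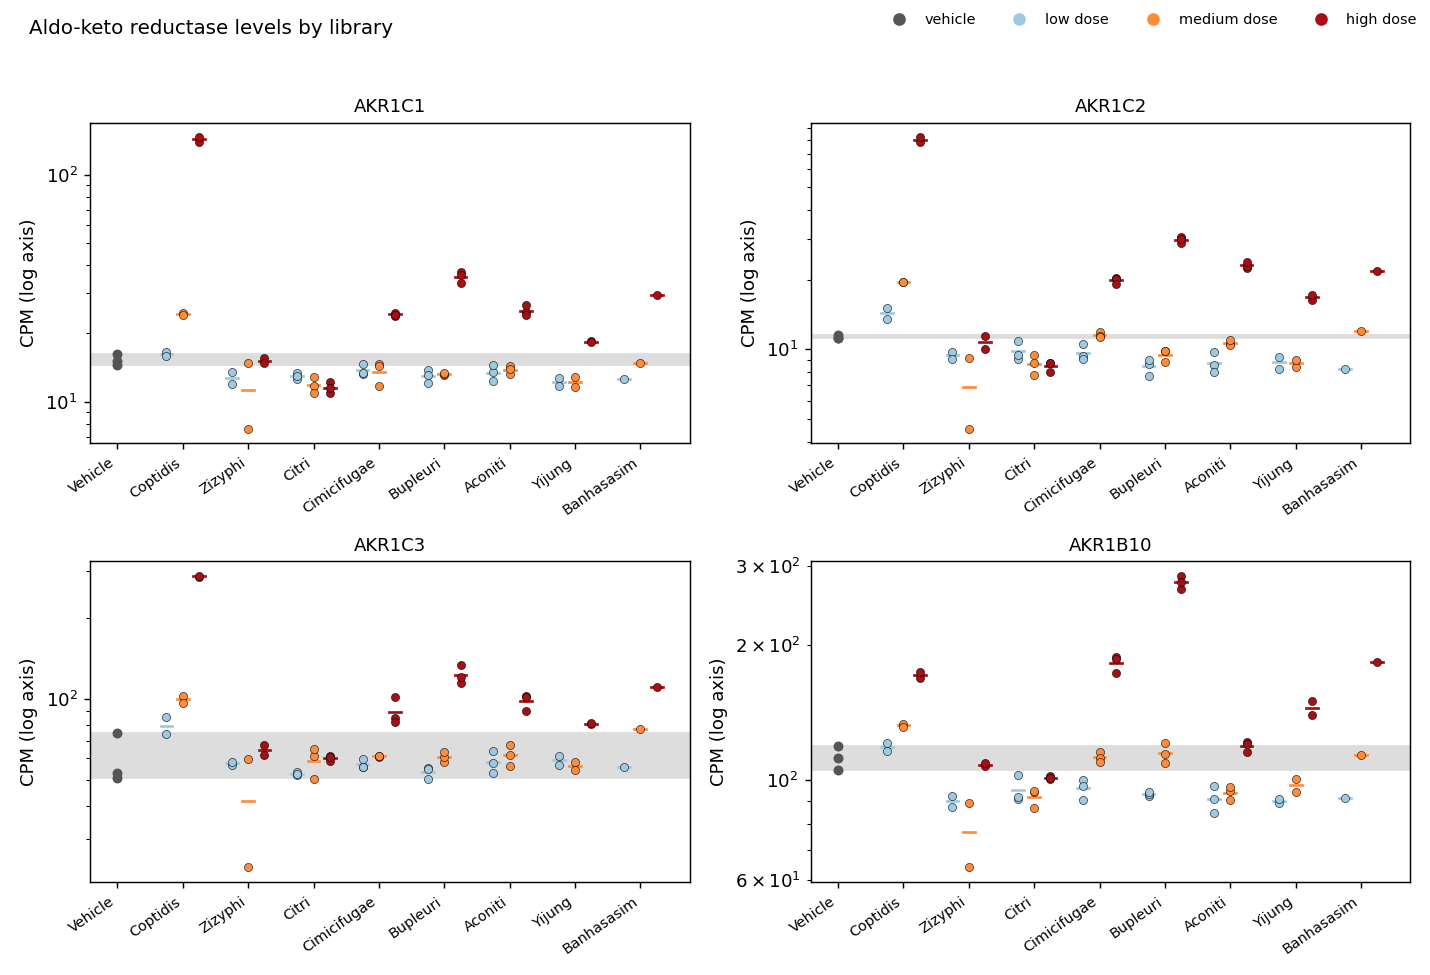
Level of AKR1C1, AKR1C2, AKR1C3 and AKR1B10 in each of the 60 libraries, in CPM on a log axis, by extract and dose; points are libraries, short lines group means and the grey band the range of the 3 vehicle libraries. The high-dose points of Coptidis are the top of the 3 AKR1C panels, whereas those of Bupleuri (267 to 285 CPM) are the top for AKR1B10. The low point of Zizyphi at the medium dose is the library that stood apart.

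AKR1B10 rose in the same 6 extracts but in another order. Bupleuri raised it most, from 92.1, 93.0 and 94.1 CPM at the low dose to 285, 267 and 277 CPM at the high dose, 2.97-fold (log2 1.57 ± 0.07, adjusted p = 4.66e-21). Coptidis took it from 116 and 121 CPM to 169 and 174 CPM, 1.45-fold (log2 0.54 ± 0.08, adjusted p = 3.36e-07). The high-dose libraries of both extracts lay above their low-dose libraries and above vehicle (119, 105 and 112 CPM), yet those of Coptidis stood below every high-dose library of Bupleuri. The other called changes were 1.00 ± 0.12 in Banhasasim (183 CPM against 91.4), 0.92 ± 0.07 in Cimicifugae (188, 186 and 173 CPM), 0.69 ± 0.08 in Yijung (139.7 and 149.9 CPM) and 0.39 ± 0.07 in Aconiti (115, 122 and 120.5 CPM), all on the log2 scale. The order of high-dose means was Bupleuri (276 CPM), Banhasasim (183), Cimicifugae (182), Coptidis (172), Yijung (145), Aconiti (119), vehicle (112), Zizyphi (108) and Citri (101.3). Banhasasim lay within the range of Cimicifugae, and Aconiti overlapped vehicle. Zizyphi was not called, although its high-dose libraries (107.6 and 109.0 CPM) lay above its low-dose libraries (87.1 and 92.2 CPM). With only its groups compared it was called (log2 0.27, adjusted p = 0.0175). In Citri the high and low doses overlapped.

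Counted over the 7 members with enough reads to test, 4 rose in Coptidis from low to high dose, where 27.8% of 16022 genes tested rose, and the other 3 fell, where 28.4% fell. In Bupleuri 4 rose against a background of 6.34%, in Banhasasim 4 against 1.04%, in Aconiti 4 against 0.474%, in Cimicifugae 4 against 0.437% and in Yijung 3 against 0.0874%. No member fell in these 5, where 6.59% of genes fell in Bupleuri, 2.23% in Aconiti, 0.693% in Banhasasim, 0.437% in Cimicifugae and 0.119% in Yijung. In Coptidis, where 56.2% of all genes were called, the number of members called says little beside the background. Since the members and the lists below were chosen with earlier results of these data known, counts beside these shares are no test. No member was called in Zizyphi (0% of genes rose, 0% fell) or Citri (0.0187% rose, 0.125% fell). At an unadjusted p under 0.05, AKR1B10 was found in Zizyphi and no member in Citri, and DESeq2 called 0 members in either. The median log2 change of the tested members was 1.20 in Bupleuri, 0.99 in Banhasasim, 0.65 in Cimicifugae, 0.54 in Coptidis, 0.45 in Yijung and 0.39 in Aconiti, while that of all genes lay between -0.02 and 0.01 in these extracts. With library totals in place of TMM, 6 of these 26 calls were lost: AKR1C3 in Banhasasim (0.87, adjusted p = 0.382) and Cimicifugae (0.63, adjusted p = 0.366), AKR1B10 in Aconiti (0.42, adjusted p = 0.124), and AKR1C1, AKR1C2 and AKR1B10 in Yijung (adjusted p = 0.726, 0.0527 and 0.130).

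**Figure D2:**
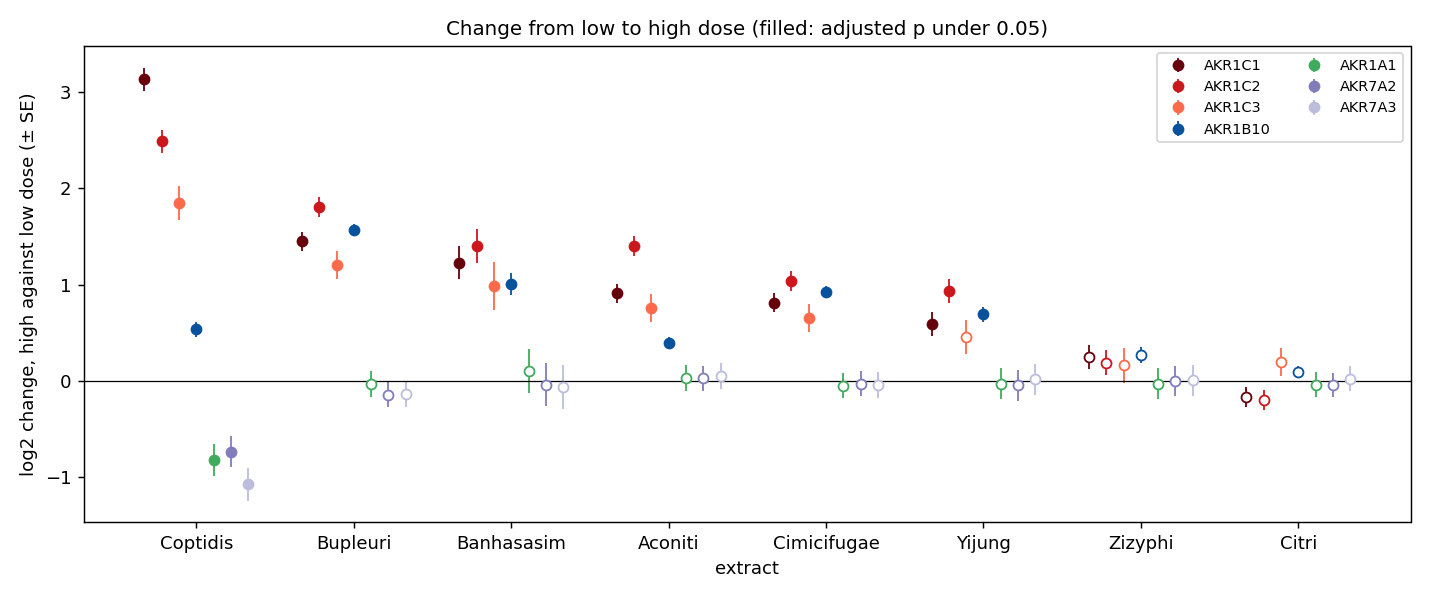
Change of the 7 tested members from low to high dose, log2 with its standard error, for each extract; filled points passed an adjusted p of 0.05. AKR1C1, AKR1C2 and AKR1B10 pass the threshold above 0 in 6 extracts and AKR1C3 in 5, AKR1A1, AKR7A2 and AKR7A3 are below 0 past the threshold in Coptidis and near 0 elsewhere, and AKR1B10 in Coptidis (0.54) sits far below AKR1C1 (3.14).

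The difference between Coptidis and Bupleuri had opposite signs for AKR1C1 and AKR1B10. The low-to-high change of AKR1C1 was larger in Coptidis by 1.68 ± 0.15 (log2, adjusted p = 3.17e-12 for the interaction), and so were those of AKR1C2 (0.68 ± 0.15, adjusted p = 0.000288) and AKR1C3 (0.65 ± 0.22, adjusted p = 0.0165). The change of AKR1B10 was smaller in Coptidis by 1.03 ± 0.10 (adjusted p = 5.9e-11). Of all genes tested, 22.6% changed more and 23% less in Coptidis than in Bupleuri, and the doses differ slightly (320 and 310 µg/mL). These extracts belong to different library sets, but each change was measured within its own set. Against Cimicifugae, too, the AKR1C1 change of Coptidis was larger (2.32 ± 0.15) and that of AKR1B10 smaller (-0.39 ± 0.10, adjusted p = 0.00202). In this difference 22.7% of all genes were higher and 22.9% lower. With library totals the AKR1B10 difference from Cimicifugae lost the threshold (-0.24, adjusted p = 0.366). The AKR1C3 difference from Bupleuri was lost without Coptidis low replicate 3 (0.55, adjusted p = 0.0917).

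Bupleuri and Aconiti, of 1 library set, whose high doses differ (310 and 500 µg/mL), differed in the change of AKR1B10 by 1.18 ± 0.09 (adjusted p = 4.32e-12) and in that of AKR1C1 by 0.54 ± 0.14 (adjusted p = 0.00899), both larger in Bupleuri, against a background of 4.59% of genes. For AKR1C2 the difference was 0.41 ± 0.14 (95% interval 0.12 to 0.70) and for AKR1C3 0.45 ± 0.20, neither past the threshold (adjusted p = 0.0716 and 0.202). Without Zizyphi medium replicate 3 both passed it (adjusted p = 0.00311 and 0.0101). Bupleuri exceeded Cimicifugae in AKR1C1 (0.64 ± 0.14), AKR1C2 (0.77 ± 0.14) and AKR1B10 (0.64 ± 0.09), where 1.16% of all genes were higher in this difference. The differences for AKR1C1 and AKR1B10 had the same sign and size here, and opposite signs between Coptidis and Bupleuri. With library totals Bupleuri and Cimicifugae no longer differed past the threshold in AKR1C1, AKR1C2 or AKR1B10 (adjusted p = 0.423, 0.172 and 0.145). The AKR1C1 difference between Bupleuri and Aconiti was then lost too (0.46, adjusted p = 0.314).

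**Figure D3:**
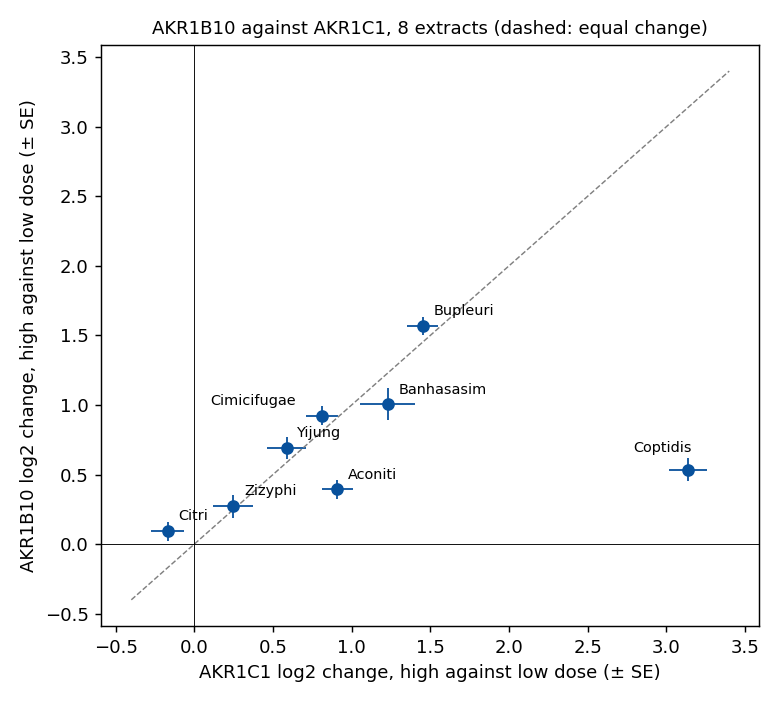
Low-to-high change of AKR1B10 (y axis) against that of AKR1C1 (x axis) in the 8 extracts, log2 with standard errors; the dashed line marks equal change. Most extracts lie near the line, Aconiti lies below it (0.91 and 0.39) and Coptidis far below it (3.14 and 0.54).

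Extracts of a set were also compared at the high dose itself. Citri and Cimicifugae, both at 500 µg/mL, differed in all 4 responsive genes, with AKR1C1 lower in Citri by 1.07 ± 0.10, AKR1C2 by 1.23 ± 0.10, AKR1C3 by 0.57 ± 0.14 (adjusted p = 0.0387) and AKR1B10 by 0.85 ± 0.07, where 0.73% of all genes were lower. The AKR1C3 difference lost the threshold when any 1 of the 6 libraries was left out. Bupleuri and Aconiti, at 310 and 500 µg/mL, differed in AKR1C1 (0.50 ± 0.09), AKR1C2 (0.36 ± 0.09) and AKR1B10 (1.21 ± 0.07), all higher in Bupleuri, as were 10.2% of genes. Yijung and Banhasasim, both formulas at 500 µg/mL, differed in AKR1C1, lower in Yijung by 0.69 ± 0.14 (adjusted p = 0.00225, 1.1% of genes lower), while for AKR1C2 (-0.38 ± 0.14, 95% interval -0.66 to -0.09), AKR1C3 (-0.46 ± 0.21) and AKR1B10 (-0.34 ± 0.10) the threshold was missed. Coptidis exceeded Zizyphi 9.44-fold in AKR1C1 and 1.59-fold in AKR1B10, at 320 and 500 µg/mL, with 28% of all genes higher and 28.8% lower. AKR1A1, AKR7A2 and AKR7A3 were the members lower in Coptidis. The low-to-high changes of this pair differed too, by 2.89 ± 0.17 in AKR1C1 (21% of genes higher, 21.8% lower in this difference), and by 0.26 ± 0.11 in AKR1B10, which missed the threshold (adjusted p = 0.0603). For Citri and Cimicifugae the difference of changes was called for AKR1C1, AKR1C2 and AKR1B10, where it was lower in 0.181% of genes.

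The proportion of AKR1C1 to AKR1C2 rose with dose in Coptidis and was lower at the high than at the low dose in the other responsive extracts. In Coptidis the ratio of their counts was 1.78 ± 0.003 (SD, n = 2) at the high dose, 1.24 ± 0.02 at the medium dose and 1.13 ± 0.06 at the low dose. In Bupleuri it was 1.20 ± 0.04 at the high dose and 1.55 ± 0.18 at the low dose (SD, n = 3), in Aconiti 1.09 ± 0.04 and 1.55 ± 0.28, in Cimicifugae 1.22 ± 0.03 and 1.44 ± 0.18 and in Yijung 1.10 ± 0.05 and 1.40 ± 0.19. Vehicle stood at 1.35 ± 0.05. The high-dose ratios of Coptidis thus lay above, and those of Bupleuri, Cimicifugae, Aconiti and Yijung below, the vehicle range of 1.298 to 1.40. The single high-dose library of Banhasasim lay within that range (1.36), against 1.54 at the low dose. No test of a ratio of genes was made, and the ratio depends on how shared reads were assigned. AKR1B10 over AKR1C1 fell from 7.29 ± 0.41 at the low dose of Coptidis through 5.44 ± 0.05 to 1.20 ± 0.01 at the high dose, and stood at 4.74 ± 0.29 at the high dose of Aconiti. In the high-dose groups of Bupleuri (7.77 ± 0.24), Cimicifugae (7.52 ± 0.31) and Yijung (7.88 ± 0.46) it was near the vehicle value of 7.31 ± 0.07, and in the Banhasasim library it was 6.18, below the vehicle libraries.

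**Figure D4:**
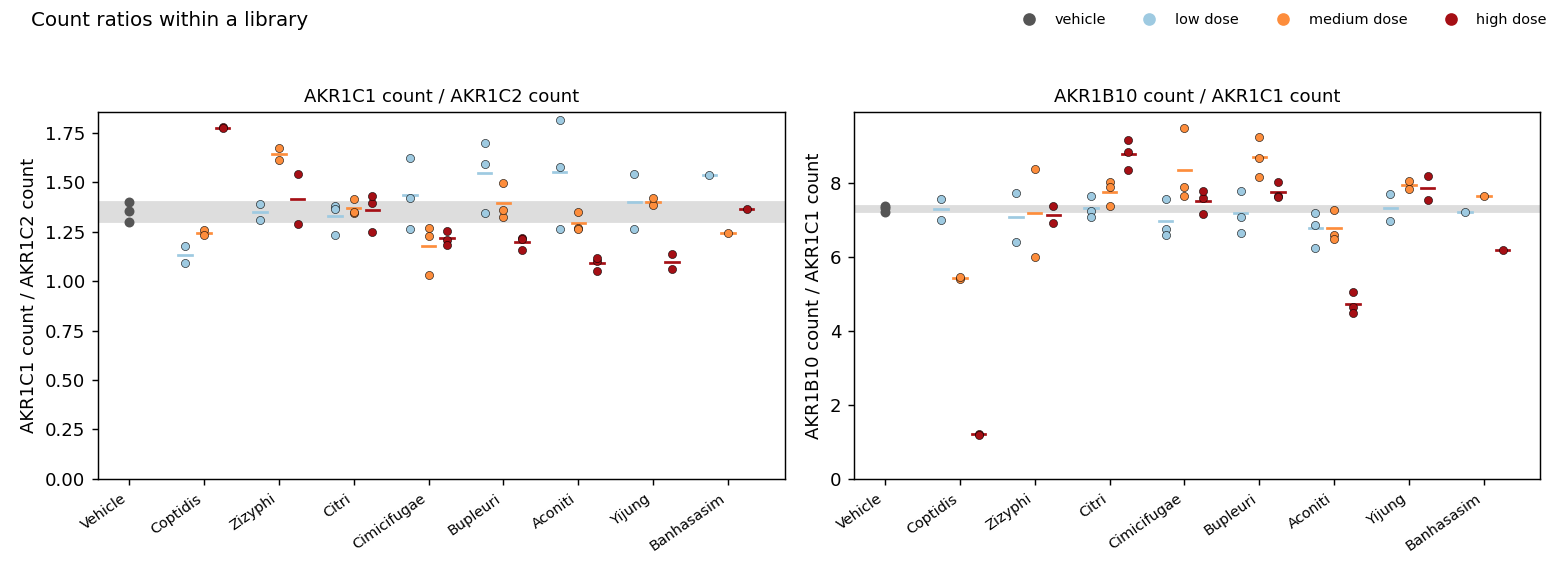
Ratio of the AKR1C1 to the AKR1C2 count (left) and of the AKR1B10 to the AKR1C1 count (right) in each library, by extract and dose; short lines are group means and the grey band is the vehicle range. Coptidis at the high dose lies above the vehicle band in the left panel (1.77 and 1.78), where the highest single point is Aconiti low replicate 3 (1.82), and is the bottom of the right panel (1.20).

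AKR1B1, aldose reductase, which opens the polyol pathway by reducing glucose to sorbitol, was close to undetected. It had 266 counts in all 60 libraries together and did not pass the filter on low counts. The vehicle libraries held 2, 1 and 3 counts, and all libraries outside the high dose of Coptidis between 0 and 12. At the high dose of Coptidis it had 24 and 23 counts, 17.7% of all its counts in 2 libraries. On the CPM scale without TMM this was 0.951, against 0.117 at the low dose (3 counts in each of 2 libraries), a ratio of 8.14 with an exact 95% interval for counting error of 3.47 to 23.3. At the high dose Aconiti had 10, 6 and 12 counts against 1, 2 and 1 at the low dose, and Cimicifugae 8, 6 and 7 against 0, 2 and 3. The groups did not overlap in either, and the count per M of the high dose was above that of the low dose in 6 of the 8 extracts, all but Zizyphi and Citri. When the model was run with no filter, AKR1B1 was called from low to high dose in Coptidis (log2 2.83, adjusted p = 0.000253) and Aconiti (2.56, adjusted p = 0.0362). In that model it was also called above vehicle in Coptidis (3.61), Aconiti (2.28), Cimicifugae (2.18) and Bupleuri (2.08). A library without a count allows up to 3 counts, that is 0.0817 to 0.166 CPM at these depths.

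AKR1A1, AKR7A2 and AKR7A3 did not rise in any extract. AKR1A1, an aldehyde reductase of glucuronate metabolism, fell in Coptidis from 70.4 and 64.5 CPM at the low dose to 37.2 and 39.3 CPM at the high dose (log2 -0.82 ± 0.17, adjusted p = 5.04e-05). AKR7A2, a succinic semialdehyde reductase, fell from 67.2 and 63.7 CPM to 39.0 and 39.5 CPM (log2 -0.74 ± 0.16, adjusted p = 0.000142). AKR7A3, a reductase of aflatoxin dialdehyde, fell from 33.01 and 32.6 CPM to 14.6 and 16.6 CPM (log2 -1.07 ± 0.17, adjusted p = 8.42e-07). The high-dose libraries of Coptidis were below all other libraries but 1 for AKR1A1 and AKR7A2, the exception being Zizyphi medium replicate 3 at 25.0 and 25.8 CPM. In the other 7 extracts the low-to-high changes lay between -0.05 and 0.10 for AKR1A1, between -0.15 and 0.03 for AKR7A2 and between -0.14 and 0.05 for AKR7A3 on the log2 scale, none past the threshold (lowest adjusted p 0.564). The fall in Coptidis differed from the change in Bupleuri by -0.79 ± 0.21 for AKR1A1, -0.59 ± 0.21 for AKR7A2 and -0.94 ± 0.22 for AKR7A3 (adjusted p = 0.00216, 0.0169 and 0.000392). With library totals each of these differences lost the threshold (adjusted p = 0.141, 0.324 and 0.0553). The AKR7A2 difference was lost without high-dose replicate 2 or low-dose replicate 2 of Coptidis (adjusted p 0.0539 and 0.0593).

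**Figure D5:**
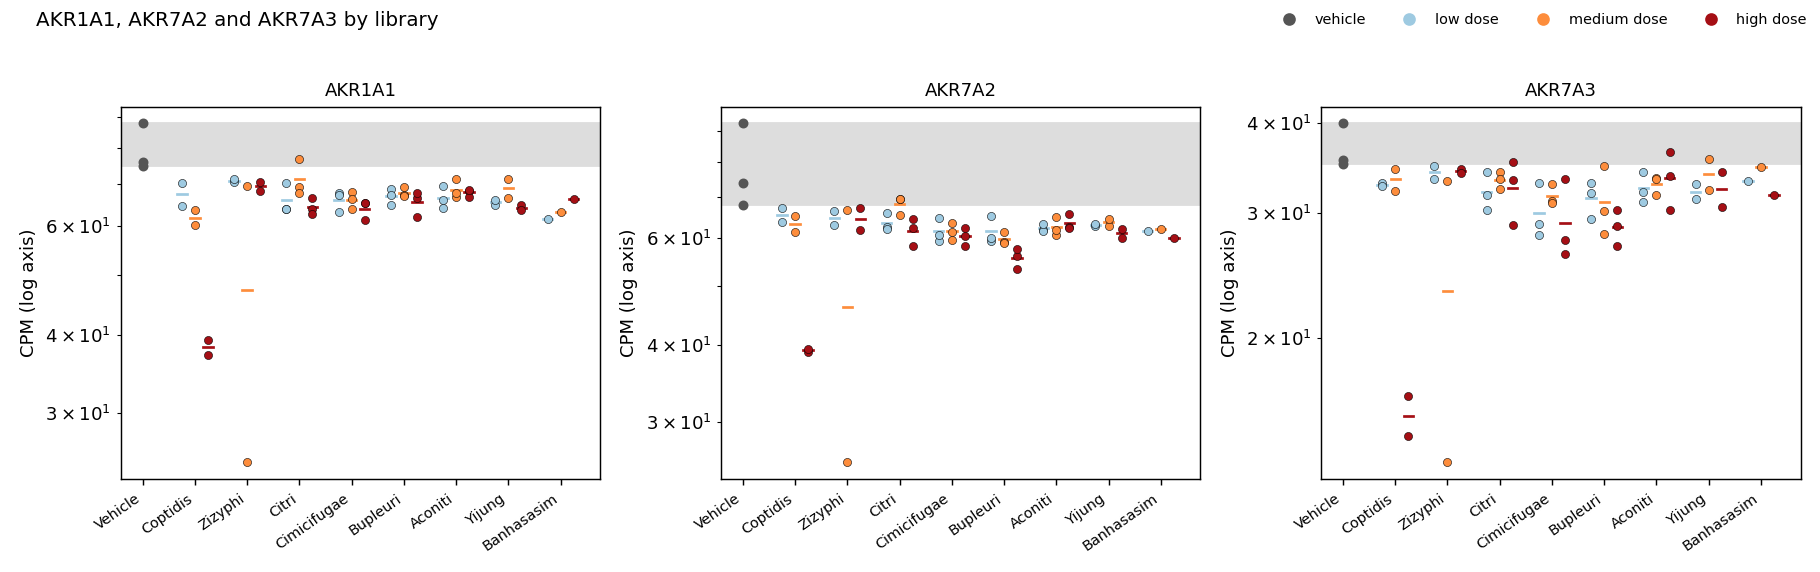
Level of AKR1A1, AKR7A2 and AKR7A3 in each of the 60 libraries, in CPM on a log axis; points are libraries, short lines group means and the grey band the vehicle range. The high dose of Coptidis is low in the 3 panels (37.2 to 39.5 CPM for AKR1A1 and AKR7A2, 14.6 and 16.6 CPM for AKR7A3), and the lowest point is Zizyphi medium replicate 3.

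Most of the rise came between the medium and the high dose. From low to medium dose Coptidis raised AKR1C1 (log2 0.58 ± 0.12, adjusted p = 0.0031) and AKR1C2 (0.45 ± 0.12, adjusted p = 0.0419), where 0.974% of all genes rose. Both were lost without low-dose replicate 3 (0.56, adjusted p = 0.0919, and 0.37, adjusted p = 0.496), and AKR1C2 also without low-dose replicate 2 (0.53, adjusted p = 0.0931). No member rose at the medium dose of another extract, where 18.7% of genes rose in Zizyphi, 0.0187% in Banhasasim, 0.00624% in Cimicifugae and 0% in the other 4; at an unadjusted p under 0.05, 2 members did so in Cimicifugae, 2 in Banhasasim, 1 in Bupleuri and 1 in Aconiti, while DESeq2 called 1, AKR1B10 in Bupleuri. In Zizyphi 5 members were lower at the medium dose than at the low dose, where 12.8% of all genes were. They were AKR1C2, AKR1B10, AKR1A1, AKR7A2 and AKR7A3. The calls rested on replicate 3, which held 25.0 CPM of AKR1A1 and 25.8 CPM of AKR7A2 against 69.7 and 66.6 CPM in replicate 2. Against 14.8 and 59.7 CPM in replicate 2, AKR1C1 and AKR1C3, which were not called, held 7.62 and 23.6 CPM in replicate 3. Without it no member was called, and the log2 changes of AKR1C3 and AKR7A2 were 0.05 and 0.04 in place of -0.43 and -0.45.

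At the high dose AKR1C1, AKR1C2, AKR1C3 and AKR1B10 stood above vehicle in 4 extracts, with the library set as part of each difference. Coptidis stood above vehicle 9.35-fold in AKR1C1, 7.10-fold in AKR1C2, 4.83-fold in AKR1C3 and 1.53-fold in AKR1B10, where 30.9% of genes were higher. All 4 were also higher than vehicle in Bupleuri (14.3% of genes), Cimicifugae (10.3%) and Banhasasim (4.94%). In Aconiti 3 were higher (9.35%), AKR1B10 being at 1.06-fold, and in Yijung 2, AKR1C2 and AKR1B10 (4.66%). In Citri AKR1C1 and AKR1C2 were lower than vehicle (both -0.41 on the log2 scale, where 5.6% of genes were lower), and in Zizyphi no member was called (4.38% of genes higher, 2.53% lower; edgeR). AKR1A1, AKR7A2 and AKR7A3 were lower in Coptidis (32% of genes), AKR7A2 and AKR7A3 in Bupleuri (12.7%) and AKR7A2 in Cimicifugae (7.7%). Without vehicle replicate 1 the AKR7A2 differences of Bupleuri and Cimicifugae were lost (adjusted p = 0.0728 and 0.342), as were AKR7A3 in Bupleuri (0.161) and AKR1C1 in Citri (0.0626). AKR7A3 in Bupleuri was also lost without vehicle replicate 2 (adjusted p = 0.0519) or Bupleuri high replicate 2 or 3 (0.131 and 0.0748), and AKR7A2 in Cimicifugae without any 1 of its high-dose libraries (0.0623 to 0.124). AKR1C2 in Citri was lost without its high replicate 3 (adjusted p = 0.0536), and AKR1B10 in Yijung without its high replicate 2 (0.066) or with only the groups compared (0.074). AKR1C3 in Banhasasim was lost with only the groups compared (adjusted p = 0.112). Library totals ended the call of AKR1C3 in Banhasasim (adjusted p = 0.091) and Cimicifugae (0.0504), AKR7A2 in Cimicifugae (0.314) and Bupleuri (0.0884), AKR7A3 in Bupleuri (0.224), and both called members in Citri and in Yijung (0.0526 to 0.184). At the low dose AKR1B10 was below vehicle in 6 extracts past the threshold, with log2 differences of -0.22 to -0.32, where the share of all genes that were lower was 2.3% in Zizyphi, 5.99% in Citri and in Bupleuri, 5.58% in Cimicifugae, 6.26% in Aconiti and 3.34% in Yijung. AKR1C2 was also below vehicle past the threshold in 3 of these extracts, Bupleuri, Aconiti and Yijung. All low-dose libraries of 7 extracts lay under the lowest vehicle library for AKR1B10 and for AKR1C2. Those of 6 extracts did so for AKR1C1, those of all 8 for AKR1A1, AKR7A2 and AKR7A3, and those of no extract for AKR1C3. How many of all genes separate in this way was not counted, and a low-dose group holds only 1 to 3 libraries. For AKR1C1, AKR1A1, AKR7A2 and AKR7A3 none of these low-dose differences passed the threshold. These comparisons share the 3 vehicle libraries, and vehicle replicate 1 was the highest of all for AKR7A2 (92.5 CPM against 73.8 and 67.9).

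Other genes of the superfamily were called from low to high dose in Coptidis and Bupleuri only. Of 9 listed, 6 passed the filter, and AKR1B15, AKR1C8 and AKR1D1 had at most 3 counts in a library. In Coptidis 1 of the 6 rose and 2 fell, where 27.8% of all genes rose and 28.4% fell. In Bupleuri 1 rose, where 6.34% of all genes did. Their median log2 change was 0.25 and 0.17 in these, against -0.02 and -0.01 for all genes. In Coptidis AKR1C4, the liver-type relative of the cluster, rose (log2 1.48 ± 0.36, from 0.661 to 1.86 CPM), while KCNAB2, a potassium channel beta subunit, fell (-1.18 ± 0.17) and AKR7L, a relative of AKR7A2, fell (-0.97 ± 0.13). AKR1C4 had few counts and is similar to the other AKR1C genes, so its value is uncertain. In Bupleuri only KCNAB2 changed, and it rose (0.54 ± 0.12). None was called in the other 6 extracts.

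Genes known as NRF2 targets outside the family rose in the same extracts. Of 26 tested, 20 rose and 3 fell in Coptidis, 24 rose in Bupleuri, 16 in Cimicifugae, 10 in Banhasasim, 9 in Aconiti and 2 in Yijung, and none was called in Zizyphi or Citri, beside the shares of all genes given above. Their median log2 change was 0.85, 0.57, 0.36, 0.40, 0.18 and 0.21 in these 6 extracts, against -0.02 to 0.01 for all genes. HMOX1, which degrades haem, rose by 3.02 ± 0.14 in Coptidis, 1.53 ± 0.11 in Bupleuri and 1.41 ± 0.11 in Cimicifugae. SLC7A11, the cystine importer, rose by 2.33 ± 0.09 in Coptidis (191 to 966 CPM), and SQSTM1, an autophagy receptor, by 1.53 ± 0.05 in Bupleuri. BLVRB, PRDX1 and TALDO1 were the 3 that fell in Coptidis. The number was 9 in place of 2 in Yijung, and 14 in place of 9 in Aconiti, without Zizyphi medium replicate 3. With only the groups compared it was 14 and 17 in these extracts, and in Yijung 4 by DESeq2, 0 without high replicate 1 and 1 without either low replicate 1 or high replicate 2. With library totals it was 7 in Cimicifugae, 3 in Aconiti, 1 in Banhasasim and 0 in Yijung.

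Of 10 regulators of the NRF2 pathway, 8 rose in Coptidis and 1 fell, 5 rose in Bupleuri and 1 in Cimicifugae, beside the 27.8%, 6.34% and 0.437% of all genes that rose. Their median log2 change was 0.58, 0.20 and 0.06, against -0.02 to 0.01 for all genes of the responsive extracts. The partner protein gene MAFF rose by 1.56 ± 0.10 in Coptidis and 0.75 ± 0.08 in Bupleuri. NFE2L2, which encodes NRF2 itself, rose by 0.66 ± 0.07 and 0.18 ± 0.06 in these, and NFE2L1 by 1.14 ± 0.04 in Coptidis, with -0.03 in Bupleuri. None of the 10 was called in Aconiti, Yijung or Banhasasim, where 0.474%, 0.0874% and 1.04% of all genes rose and 2.23%, 0.119% and 0.693% fell.

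Of 17 other carbonyl-detoxifying enzymes, 4 rose and 10 fell in Coptidis, where 27.8% of all genes rose and 28.4% fell. Among them were PTGR1, a reductase of prostaglandins and alkenals (1.23 ± 0.08), ALDH1A3 (1.10 ± 0.09) and ALDH1B1 (-1.73 ± 0.13). Their median was -0.33 in Coptidis and -0.01 in Bupleuri (all genes -0.02 and -0.01). In Bupleuri 4 rose and 2 fell, beside 6.34% and 6.59% of all genes, in Cimicifugae 4 rose, in Banhasasim 3, in Aconiti 2 and in Yijung 1. The aldehyde dehydrogenase ALDH3A1 rose by 1.43 ± 0.11 in Banhasasim, 1.08 ± 0.06 in Bupleuri, 0.95 ± 0.06 in Cimicifugae, 0.79 ± 0.08 in Yijung and 0.39 ± 0.06 in Aconiti, and by 0.32 in Coptidis (adjusted p = 0.000418). Like AKR1B10, it thus had a small change in Coptidis beside that in Bupleuri; this difference was not tested for ALDH3A1.

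Of 5 polyol and osmolyte genes tested, 4 fell in Coptidis (median -1.20; 28.4% of all genes fell), including SORD, the dehydrogenase that follows aldose reductase (-1.24 ± 0.07, 332 to 140.4 CPM), and SLC5A3, the inositol transporter (-1.93 ± 0.12). SLC5A3 rose in Bupleuri (0.61 ± 0.09) and fell in Banhasasim (-0.71 ± 0.16). Of 19 steroid and prostaglandin genes, 4 rose and 8 fell in Coptidis, beside 27.8% and 28.4% of all genes, with HSD11B2, which inactivates cortisol, at -1.92 ± 0.26, HSD17B7 at -1.49 ± 0.12 and PTGS2, the inducible cyclooxygenase, at 1.07 ± 0.12. In Bupleuri 3 rose and 2 fell, beside 6.34% and 6.59% of all genes. Their medians were -0.10 and -0.03, against -0.02 and -0.01 for all genes.

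Targets of the aryl hydrocarbon receptor, which include ALDH3A1 and NQO1 of the lists above, were also counted. Of 7 tested, 6 rose in Coptidis, 6 in Bupleuri, 5 in Cimicifugae, 4 in Banhasasim, 2 in Aconiti and 1 in Yijung. Of all genes, 27.8%, 6.34%, 0.437%, 1.04%, 0.474% and 0.0874% rose in these extracts. The median log2 change of the targets was 1.42 in Coptidis, 0.63 in Banhasasim, 0.58 in Cimicifugae and 0.49 in Bupleuri. It was 0.37 in Yijung and 0.28 in Aconiti, against -0.02 to 0.01 for all genes. CYP1A1 rose by 6.87 ± 0.18 in Coptidis (2.21 to 258 CPM), 4.46 ± 0.23 in Banhasasim, 3.26 ± 0.32 in Bupleuri and 2.38 ± 0.26 in Cimicifugae. In Aconiti CYP1A1 changed by 1.19, which missed the threshold (adjusted p = 0.0628).

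The genes whose pattern was most like that of AKR1C1 were sought by Pearson r over the 24 extract and dose means of log2 CPM, each centred on the mean of its extract. The 8 highest outside the family were GCLC (r = 0.980), TRIM16L (0.976), HMOX1 (0.974), TFE3 (0.970), SLC22A3 (0.966), TXNRD1 (0.962), GPAT3 (0.956) and NQO1 (0.956). GCLC encodes the catalytic subunit of the rate-limiting enzyme of glutathione synthesis, TXNRD1 is thioredoxin reductase and NQO1 a quinone reductase. Spearman's rho of these 8 lay between 0.903 and 0.961, and r without Coptidis between 0.898 and 0.957. Within the family r was 0.965 for AKR1C2, 0.963 for AKR1C3, 0.753 for AKR1B10, -0.484 for AKR1A1, -0.569 for AKR7A2 and -0.650 for AKR7A3. Without the 3 Coptidis groups, over 21 means, r was 0.952 for AKR1B10, 0.139 for AKR1A1, -0.01 for AKR7A2 and -0.04 for AKR7A3. The low r of AKR1B10 and the negative r of the other 3 thus rest on Coptidis. The medium-dose mean of Zizyphi includes replicate 3, the library that stood apart, and r without it was not computed. The means share library sets and a few large changes, so these values describe the pattern only.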

How the data were processed

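Total RNA-seq of HT29 cells was analysed in 60 libraries. Per the submitters' processing notes, the authors used RSEM (1.3.3) and STAR (2.7.3a) with GRCh38, and FastQC (0.11.9) and Trim Galore (0.6.5) for the reads. No annotation is named in the sources used here. The authors deposited expected counts per gene, estimated by RSEM, which shares reads among similar genes. Another 210 of the 270 columns of the table were not analysed here. Symbols were matched for 93.21% of 60675 gene identifiers.

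Expected counts were rounded, and genes with at least 0.5 CPM in 3 libraries were kept (16022 genes). A model with 25 groups was fitted with TMM scaling and tested by edgeR 4.0.16 (R 4.3.3; quasi-likelihood test, Benjamini-Hochberg adjustment over all genes tested of a comparison, threshold 0.05). It had 35 residual degrees of freedom and a biological coefficient of variation of 7.83%. CPM are TMM-scaled. Library totals of 18.1 to 36.7 M counts (median 24.1) set the precision. The comparisons were high or medium against low dose (8 each), each dose against vehicle (24), extracts of a set at the high dose (4) and differences of low-to-high changes (7). Calculations were tested on simulated data. DESeq2 1.42.0, its size factors, no filter, only the groups compared, a replicate block, summed AKR1C counts and libraries left out were the alternatives; library totals without TMM, and all alternatives for medium doses, pairs and differences, were added after seeing the data. Replicate numbers were not used as pairs in the main model. The deviations of same-numbered high- and low-dose libraries correlated by 0.02 to 0.13 in Citri, Cimicifugae and Bupleuri. In Coptidis, Zizyphi, Aconiti and Yijung they correlated by -0.03 to 0.01, and high-dose with vehicle libraries by -0.09 to 0.07. Intervals for counts are exact and cover counting error only. Coding sequences came from GENCODE 29 and promoter windows from RefSeq.

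All members are described. From each list of related genes up to 3 with the largest called change in an extract were named, and the 8 genes of most like pattern to AKR1C1. NFE2L2, NFE2L1 in Bupleuri, and the NRF2 targets that fell were named after their values were seen, as were values of a named gene in further extracts. The members and lists were chosen with earlier results of these data known.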

Additional observations from a re-analysis of the deposited data

Results flagged for a closer look

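The low-to-high change of a member differed between 2 extracts, by edgeR's interaction test with Benjamini-Hochberg adjustment, in 28 of the 49 cases tested over 7 pairs of extracts. Of 16022 genes tested, 6870 were called for Coptidis minus Zizyphi, 7298 for Coptidis minus Bupleuri and 7305 for Coptidis minus Cimicifugae. The number was 1365 for Bupleuri minus Aconiti, 293 for Bupleuri minus Cimicifugae, 74 for Yijung minus Banhasasim and 32 for Citri minus Cimicifugae. All values below are differences of log2 changes. Coptidis exceeded Zizyphi in AKR1C1 (2.89), AKR1C2 (2.30) and AKR1C3 (1.69) and was below it in AKR1A1 (-0.79), AKR7A2 (-0.73) and AKR7A3 (-1.08). Against Bupleuri, Coptidis was higher in AKR1C1 (1.68), AKR1C2 (0.68) and AKR1C3 (0.65) and lower in AKR1B10 (-1.03), AKR1A1 (-0.79), AKR7A2 (-0.59) and AKR7A3 (-0.94). Against Cimicifugae it was higher in AKR1C1 (2.32), AKR1C2 (1.45) and AKR1C3 (1.20) and lower in AKR1B10 (-0.39), AKR1A1 (-0.77), AKR7A2 (-0.71) and AKR7A3 (-1.03).

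Citri was below Cimicifugae in AKR1C1 (-0.98), AKR1C2 (-1.24) and AKR1B10 (-0.83). Bupleuri exceeded Aconiti in AKR1C1 (0.54) and AKR1B10 (1.18), and Cimicifugae in AKR1C1 (0.64), AKR1C2 (0.77) and AKR1B10 (0.64). No difference was called between Yijung and Banhasasim.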

How the results depend on the processing

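Of 2000 alternative values of single members, 1800 kept their direction and side of the threshold, 101 lost and 97 gained the call, and 2 changed sign. For the 26 calls from low to high dose, 316 alternatives gave 15 losses and no change of sign. The 2 that changed sign were AKR1C3 (0.053) and AKR7A2 (0.041) from low to medium Zizyphi without medium replicate 3. The cause of the following changes was not tested.

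Numbers of members called from low to high dose were 1 in Zizyphi and 1 in Citri (0 in each before) with only the groups compared. In Yijung (3 before) they were 0 with library totals and 1 with AKR1C counts summed. Over all genes the calls in these settings were 7 in Zizyphi (0 before), 65 in Citri (23 before) and 6 and 27 in Yijung (33 before). With library totals the median log2 change of all genes from low to high dose was 0.107 in Coptidis and -0.109 in Banhasasim, a move of 0.129 and -0.114, and from low to medium dose it moved by -0.347 in Zizyphi. From low to medium dose, Coptidis (2 before) had 0 with library totals, 0 with AKR1C summed, 4 with only its groups and 0 to 1 with a library left out. Zizyphi (5 before) had 0 without medium replicate 3, 0 with only its groups and 0 to 0 with a low-dose library left out. Bupleuri (0 before) had 1 with no filter, 1 without Zizyphi medium replicate 3, 1 with only its groups and 1 by DESeq2. At the medium dose all genes called in Coptidis (216 before) were 225 with library totals, 214 with AKR1C summed and 845 with only its groups. In Zizyphi (5038 before) they were 0 with only its groups. In Bupleuri (0 before) they were 56 with no filter, 2 without Zizyphi medium replicate 3, 3 with only its groups and 2 by DESeq2.

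Against vehicle at the high dose, more genes were called in all without Zizyphi medium replicate 3. They were 3360 in Zizyphi (1106 before), 4659 in Citri (2116), 5190 in Aconiti (2774) and 3517 in Yijung (1225). With no filter they were 1053, 1883, 2481 and 1218 in these, and 2598 in Cimicifugae (2881 before). With library totals they were 916 in Citri, 1450 in Cimicifugae and 473 in Yijung, and 29 in Yijung with only its groups. Of the members, Zizyphi (0 before) had 1 with no filter and 2 without that library. Citri (2 before) had 0 with library totals, 4 with no filter, 5 without that library, 0 with AKR1C summed and 1 to 3 with a library left out. Cimicifugae (5 before) had 3 with library totals and 8 with no filter, and Aconiti (3 before) 6 with no filter and 5 without that library. Yijung (2 before) had 0 with library totals, 5 with no filter, 6 without that library, 4 with AKR1C summed, 1 with only its groups and 1 to 3 with a library left out.

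Between high doses, Bupleuri against Aconiti (3 before) had 1 with library totals, 6 without that library and 6 with only its groups. Over all genes the calls there were 2394, 5265 and 5438 in these settings (3381 before). Yijung against Banhasasim (1 before) had 0 with library totals, 2 with no filter, 4 without that library, 0 with AKR1C summed, 4 with only its groups and 2 by DESeq2. With the replicate block it had 2, and the replicate block moved no other count of members by over 1.5 times. All genes called in Yijung against Banhasasim (252 before) were 144 with library totals and 641 without that library.

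For differences of changes, Citri minus Cimicifugae (3 before) had 1 with library totals and 1 with AKR1C summed. Bupleuri minus Aconiti (2 before) had 1 with library totals, 4 without that library, 1 with AKR1C summed and 5 with only its groups. Yijung minus Banhasasim (0 before) had 1 without that library and 3 with only its groups. Coptidis minus Bupleuri and Coptidis minus Cimicifugae (7 before in each) had 4 and 4 with library totals. Bupleuri minus Cimicifugae (3 before) had 0 with library totals and 1 with AKR1C summed. With library totals all genes called in these differences were 6283 (7298 before), 6244 (7305) and 114 (293). In Citri minus Cimicifugae (32 before) they were 9 with library totals and 29 with AKR1C summed. In Bupleuri minus Aconiti (1365 before) they were 722 with library totals, 2727 without that library and 3128 with only its groups. Yijung minus Banhasasim (74 before) had 180 without that library.

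No fit of only the groups compared was possible for Banhasasim from low to high dose (1 library each), and no Banhasasim library was left out. AKR1B1 is limited by depth.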
